A study of Mus musculus with 6 samples.

Results

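The genes described here are 10 markers of lipid-associated macrophages: Gpnmb, Trem2, Spp1, Cd9, Lpl, Fabp5, Atp6v0d2, Lgals3, Cd63 and Apoc2. They were taken as a list of gene symbols, and all 10 were found among the 24982 genes of the count tables. Liver polyA RNA came from male C57BL/6NJ mice, 3 samples of which were labelled as chow-fed and 3 as given high fat food and sugar water (called high fat high sugar) over 54 weeks. The series concerns a Western-type diet model in which fatty liver disease goes on to liver cancer. The labels name no transgene, drug or other treatment. They leave unsaid whether tumours were included in the sampled tissue and whether each sample was its own animal. The p-values therefore measure only the spread between these samples, which may be technical. The age at the start of the diets is not given in the sources used here.

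Lipid-associated macrophages are phagocytes that gather in fat-loaded tissue, such as obese adipose tissue and fatty liver, where many of them arise from blood monocytes and sit near dying, lipid-filled cells and scar. The receptor TREM2 binds lipids and debris and signals through the adaptor TYROBP, and the cells take up, break down and store lipid with the help of lipases, fatty acid binding proteins and acidified lysosomes. Several of the genes are shared with other cells: osteopontin (Spp1) and galectin-3 (Lgals3) are also made by bile duct cells, Cd9 and Cd63 are widespread, and Apoc2 is mostly a hepatocyte product.

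Gene counts totalled 16565335 to 20005873 per chow library and 17647882 to 20585366 per high fat high sugar library. Levels are counts per 1000000 (CPM) with library sizes scaled by TMM, whose factors were 0.897 to 0.945 in chow and 1.01 to 1.26 in high fat high sugar. The 12949 genes that passed a filter on low counts were compared between diets by edgeR's quasi-likelihood test, and a gene was called where its Benjamini-Hochberg adjusted p, written below as edgeR adjusted p, was under 0.05. By this rule 11.0% of tested genes were higher and 3.61% were lower in high fat high sugar. The 9 hepatocyte markers, among them Alb for albumin, were abundant in every library. Their summed level was 104700 to 127600 CPM in chow and 45060 to 100100 CPM in high fat high sugar, lowest in replicate 2. The calls depended on every chow library. Without chow replicate 1, 2 or 3, edgeR called 762, 345 or 4 genes higher and 177, 113 or 2 lower. Without chow replicate 3, 0 of the 10 were among them, while 3203 genes still had an unadjusted edgeR p under 0.05.

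Of the 10 genes, 6 rose in high fat high sugar (Gpnmb, Trem2, Cd63, Lpl, Spp1 and Cd9), 0 fell, and 4 did not pass the test (Lgals3, Fabp5, Atp6v0d2 and Apoc2). Among all tested genes 11.0% were higher and 3.61% lower, shares that also stand beside the counts of each list below. All 10 passed the filter on low counts, but Gpnmb and Trem2 passed it through their high fat high sugar libraries, since at most 1 chow library reached the filter level for either. The median log2 fold change of the 10 was 2.84, beside -0.02 over all tested genes. In 8 of the 10, every high fat high sugar library lay above every chow library, which held for 21.5% of tested genes. In 8 of the 10, high fat high sugar replicate 2 was the highest of its group, against 39.2% of tested genes. For Fabp5 and, by a small margin, Apoc2 it was the lowest, which held for 36.2% of tested genes. Without chow replicate 1, 2 or 3 the number of the 10 called was 2, 2 or 0, with 8 higher at an unadjusted p under 0.05 each time. Where a list below has 0 genes lower, 0 were also lower at an unadjusted p under 0.05, with DESeq2 and with limma-voom, save for the genes around Apoc2. These are bulk samples, so a change in the number of cells of a type, up or down, and a change in RNA per cell cannot be told apart.

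**Figure D1:**
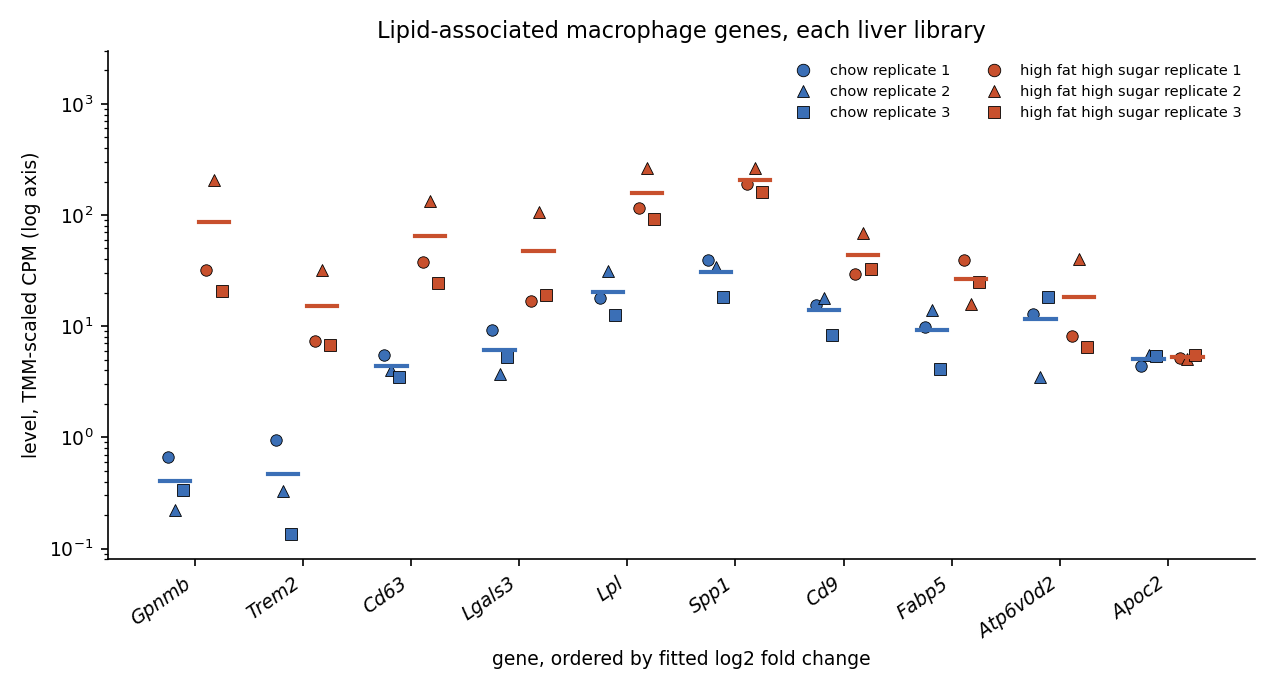
Level of each of the 10 genes in TMM-scaled CPM (log axis) in the 3 chow libraries (blue) and the 3 high fat high sugar libraries (orange), with replicates by marker shape and horizontal bars for group means. The groups do not overlap for 8 genes and overlap for Atp6v0d2 and Apoc2, and the triangle of high fat high sugar replicate 2 is the top orange point for 8 genes.

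**Figure D2:**
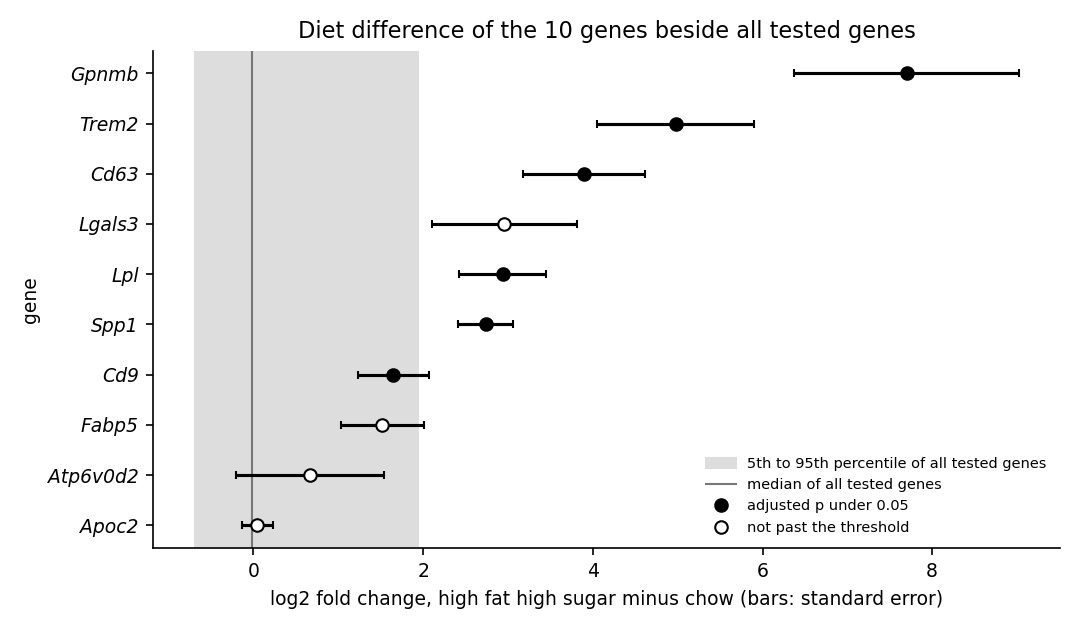
Fitted log2 fold change (high fat high sugar minus chow) of each of the 10 genes, with bars for the standard error, filled points past the threshold and open points not past it. The grey band spans the 5th to 95th percentile of all tested genes, -0.69 to 1.94, and the estimates of Gpnmb, Trem2, Cd63, Lgals3, Lpl and Spp1 lie to its right.

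Promoter sequence from RefSeq (GRCm38.p6) was on hand for 7 of the 10 genes, with 8 promoters, each from 250 bases before to 50 bases after the annotated start. Both strands were searched for the letters CACGTG and CATGTG, which factors of the MITF/TFE family bind, GAGGAA, the core bound by the macrophage factor PU.1, and TGANTCA, bound by AP-1. No searched motif overlaps another in these windows. CACGTG was in 0 of the 7 genes and in 7.15% of all 32851 promoters of that length. CATGTG was found in Cd9 and in 14.2% of all promoters, GAGGAA in Cd63, Spp1 and Trem2 and in 28.3%, and TGANTCA in Gpnmb and Trem2 and in 7.81%. The stretches with matches in the 5 genes that rose and have an entry are shown 5′ to 3′ on the strand of the gene, with the matched letters in capitals. A TGANTCA match is one on both strands, TTCCTC is GAGGAA read on the other strand and CACATG is CATGTG read on the other strand.
Gpnmb (chr6:49036511-49036540, plus strand): gatgccaggggcaagTGACTCAtgagcacg
Trem2 (chr17:48346281-48346400, plus strand): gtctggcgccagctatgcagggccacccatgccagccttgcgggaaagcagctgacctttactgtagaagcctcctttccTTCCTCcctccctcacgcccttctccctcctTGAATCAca
Spp1 (chr5:104434991-104435110, plus strand): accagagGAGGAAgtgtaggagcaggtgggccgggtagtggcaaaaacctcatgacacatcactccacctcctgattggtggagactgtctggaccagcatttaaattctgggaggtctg
Cd63 (chr10:128909225-128909344, plus strand): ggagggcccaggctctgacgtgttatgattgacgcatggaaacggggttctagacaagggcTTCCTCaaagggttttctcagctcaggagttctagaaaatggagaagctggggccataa
Cd9 (chr6:125494761-125494880, minus strand): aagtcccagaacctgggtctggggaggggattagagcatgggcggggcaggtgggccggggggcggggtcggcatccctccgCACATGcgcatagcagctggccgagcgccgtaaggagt
With the base at the start site counted as 1 and the one before it as -1, TGACTCA lies at 9 to 15 in Gpnmb and TGAATCA at -9 to -3 in Trem2. The GAGGAA matches lie at -40 to -35 in Trem2, at -113 to -108 in Spp1, and at -59 to -54 in Cd63, which has another at -244 to -239 outside the stretch shown. The CATGTG match in Cd9 lies at -38 to -33. A match is a run of letters, not a measured site.

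Among the surface proteins, Gpnmb had the largest fold change of the 10. Gpnmb encodes a membrane glycoprotein of lysosomes and of the surface of lipid-laden macrophages, and lies at chr6:49036518-49058182 (RefSeq, GRCm38.p6). Its level was 0.667, 0.220 and 0.337 CPM in chow replicates 1, 2 and 3, and 31.8, 207 and 20.7 CPM in high fat high sugar replicates 1, 2 and 3. The 3 chow libraries held 21 counts between them and the other 3 held 6362. The transcript was close to absent in chow and plain in every high fat high sugar library, with replicate 2 standing 7.89 times above the mean of replicates 1 and 3. The log2 fold change was 7.70 ± 1.32 (SE; edgeR adjusted p = 0.0189). The call was lost without chow replicate 1 (edgeR adjusted p = 0.0597), 2 (0.0687) or 3 (0.0897), with limma-voom (0.0968) and with low counts left unfiltered (0.0544), and high fat high sugar replicates 1 and 3 alone gave a log2 fold change of 5.98.

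Trem2, the lipid-sensing receptor that names the cell state, lies at chr17:48346401-48352276. Its level was 0.946, 0.330 and 0.135 CPM on chow against 7.39, 31.9 and 6.70 CPM on high fat high sugar, from 25 and 1092 counts. All 3 high fat high sugar libraries were above all 3 chow libraries, and replicate 2 was again the highest, 4.53 times the mean of the other two. Its log2 fold change was 4.98 ± 0.92 (SE; edgeR adjusted p = 0.0205). Chow replicate 3 held 2 counts of Trem2, below the 3 counts taken as the floor, so the size of the rise is uncertain. The call was lost without chow replicate 2 (edgeR adjusted p = 0.0750) or 3 (0.0885) and with limma-voom. Its log2 fold change was 5.95 when chow replicate 1 was left out and 3.85 when high fat high sugar replicate 2 was.

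Most tested genes that act with or beside Trem2 were higher as well, as were markers of macrophages in general and of other cells. Of 10 tested genes of its signalling list, 9 were higher and 0 lower (median log2 fold change 1.93), beside 11.0% of all tested genes higher. Another 5 of the 15 listed had too few counts to test. Of 12 pan-macrophage markers 11 were higher (median 1.80), and of 10 stellate cell and fibroblast markers 9 (median 1.715), so the rise was not particular to this list. Tyrobp, the adaptor that carries the signal, went from 9.29 ± 2.81 to 37.6 ± 19.5 CPM (SD, n = 3 each; log2 fold change 2.02 ± 0.40, edgeR adjusted p = 0.0225). Syk, the kinase recruited to the adaptor, rose by 2.23 on the log2 scale, Plcg2, the phospholipase downstream of it, by 2.03, and Inpp5d, a lipid phosphatase that restrains the pathway, by 2.14. Treml4, a related receptor in the same gene cluster, rose by 1.60. Without chow replicate 2 edgeR called 1 of these 10 genes and without chow replicate 3 it called 0, and with the other libraries left out 6 to 10.

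The secreted proteins of the group differed in spread. Spp1, which lies at chr5:104435111-104441053 and encodes osteopontin, a matrix protein and cytokine, was at 39.5, 34.3 and 18.3 CPM in chow and at 190, 264 and 161 CPM in high fat high sugar. The high fat high sugar libraries lay close together and well above chow, with replicate 2 at 1.50 times the mean of the other two. On the log2 scale it rose by 2.74 ± 0.32 (SE; edgeR adjusted p = 0.00858), the smallest adjusted p of the 10. The call was lost without chow replicate 3 (log2 fold change 2.46, edgeR adjusted p = 0.0528). Gm42793 overlaps Spp1 on the same strand, matches 181 of its bases at 100% identity and was not among the counted genes. Reads from Gm42793 could thus have been counted with Spp1. Of 9 tested osteopontin receptors, 5 were higher and 0 lower. The hyaluronan and osteopontin receptor Cd44 rose by 2.14, and the integrin subunits Itga8, Itga4, Itga9 and Itgb3 by 2.73, 2.16, 1.33 and 0.93 on the log2 scale. Of the receptors, 2, 2 or 0 were called without chow replicate 1, 2 or 3.

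Lgals3, at chr14:47373860-47386167, encodes galectin-3, a sugar-binding protein that coats damaged lysosomes and is secreted. Its level was 9.23, 3.74 and 5.25 CPM in chow and 16.8, 106 and 18.9 CPM in high fat high sugar. The groups did not overlap, but replicate 2 was 5.93 times the mean of the other two high fat high sugar libraries, a wider spread than that of Spp1. The log2 fold change was 2.96 ± 0.86 (SE) and did not pass (edgeR adjusted p = 0.0687). It passed with DESeq2 (adjusted p = 0.00891) and with edgeR without high fat high sugar replicate 1 (0.0482) or 2, where it was 1.56 (0.0309). Of 6 tested galectins and relatives other than Lgals3, 1 was higher: Lgals3bp, a secreted partner of galectin-3, rose by 0.92 ± 0.14 on the log2 scale, a call lost only without chow replicate 3. Lgals9, another galectin, had a log2 fold change of -0.16 ± 0.26.

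The tetraspanins Cd63 and Cd9 organise membrane proteins into patches, Cd63 mainly in late endosomes and lysosomes and Cd9 mainly at the cell surface. Cd63, at chr10:128896231-128912822, was at 5.51, 4.07 and 3.50 CPM in chow and at 38.1, 133 and 24.6 CPM in high fat high sugar. The lowest high fat high sugar library was above the highest chow library by more than the whole chow range. On the log2 scale it rose by 3.90 ± 0.72 (SE; edgeR adjusted p = 0.0212). The call was lost without chow replicate 1 (edgeR adjusted p = 0.0608), 2 (0.0733) or 3 (0.0945) and with low counts left unfiltered, and high fat high sugar replicates 1 and 3 alone gave 2.85. A processed copy, Cd63-ps, matches 812 bases of Cd63 at 98.5% identity and has no row of its own in the tables, so reads that fit both could have been lost or counted with Cd63.

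Cd9, at chr6:125460266-125494760, was at 15.6, 17.9 and 8.35 CPM in chow and at 29.7, 69.2 and 32.5 CPM in high fat high sugar. The groups did not overlap, yet its log2 fold change of 1.65 ± 0.42 (SE; edgeR adjusted p = 0.0447) was the weakest of the 6 calls. It was lost without chow replicate 1 (edgeR adjusted p = 0.0990), 2 (0.0826) or 3 (0.121), with high fat high sugar replicate 2 (0.0522) or 3 (0.0505) left out, with limma-voom (0.0530) and with low counts left unfiltered (0.0823). Gm28809 and Gm26728 overlap Cd9 on the opposite strand; the library kit marks strand, and whether counting used it is not given in the sources used here. Among 21 other tested tetraspanins, 6 were higher and 1 lower. Tspan8, Tspan13, Tspan15 and Tspan3 rose by 2.78, 1.67, 1.61 and 1.49 on the log2 scale, and Tspan33 fell by 1.24. Those called higher numbered 2, 1 or 0 without chow replicate 1, 2 or 3. Tspan33 lost its call when any of 4 libraries was left out, chow replicates 2 and 3 and high fat high sugar replicates 1 and 2.

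Among the genes of lipid handling, Lpl rose, Fabp5 did not pass the test, and Apoc2 had nearly the same mean on both diets. Lpl, at chr8:68880555-68906932, encodes lipoprotein lipase, which frees fatty acids from triglyceride-rich lipoproteins and is low in adult hepatocytes. It was at 17.7, 31.1 and 12.6 CPM in chow and at 116, 263 and 91.7 CPM in high fat high sugar. Every high fat high sugar library exceeded the highest chow library, with replicate 2 at 2.54 times the mean of the other two. Its log2 fold change was 2.94 ± 0.52 (SE; edgeR adjusted p = 0.0179). The call was lost without chow replicate 1 (edgeR adjusted p = 0.0582) or 3 (0.0787), and leaving out high fat high sugar replicate 2 gave a log2 fold change of 2.35.

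No tested partner of Lpl was called higher. Of 15 tested genes for its maturation, anchoring, inhibition and relatives, 0 were higher with edgeR (2 at an unadjusted p under 0.05, 1 with DESeq2, 0 with limma-voom) and 1 was lower (6 with DESeq2, 3 without high fat high sugar replicate 3), with a median log2 fold change of -0.37; hepatic lipase, Lipc, fell by 0.73 ± 0.13 on the log2 scale. Gpihbp1, which anchors the lipase on capillaries, had a log2 fold change of 0.39 ± 0.14 and Angptl4, its inhibitor, one of -0.37 ± 0.20. Vldlr, a lipoprotein receptor, had 5.37 ± 1.45 CPM on chow against 10.1 ± 2.67 CPM on high fat high sugar (SD, n = 3 each), with a log2 fold change of 0.92 ± 0.27 that did not pass (edgeR adjusted p = 0.0612). The fall of Lipc was not called without chow replicate 2 or 3.

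Fabp5, at chr3:10012585-10016610, encodes the fatty acid binding protein of skin and macrophages. It was at 9.79, 13.9 and 4.11 CPM in chow and at 39.7, 15.9 and 24.7 CPM in high fat high sugar. The groups did not overlap, but only just, and high fat high sugar replicate 2, the highest for most of the other genes, was here the lowest, at 0.494 of the mean of the other two. The estimate of 1.52 ± 0.49 (SE) did not pass (edgeR adjusted p = 0.0835), while DESeq2 gave an adjusted p of 0.00576. Its processed copies Gm14328 and Gm6166 match it at 97.3% and 98.3% identity and have no rows in the tables. Reads that fit Fabp5 and a copy could thus have been lost or counted with Fabp5. Of 4 other tested fatty acid binding proteins, 2 were higher: Fabp4, the form of adipocytes and macrophages, rose by 2.08 ± 0.38 on the log2 scale and was highest in replicate 3, and Fabp7, known from brain and found in liver, rose by 2.35 ± 0.31. Fabp1, the main form of hepatocytes, had a log2 fold change of -0.16 ± 0.54 and was lowest in high fat high sugar replicate 2, as Fabp5 was within its group. Without chow replicate 1, 2 or 3 edgeR called 1, 1 or 0 of the 4.

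Apoc2, at chr7:19671579-19677941, encodes the apolipoprotein that switches on lipoprotein lipase. It was at 4.34, 5.55 and 5.39 CPM in chow and at 5.17, 5.08 and 5.53 CPM in high fat high sugar, so the groups overlapped throughout. The log2 fold change was 0.05 ± 0.18 (SE; edgeR adjusted p = 0.885) and turned to -0.07 without chow replicate 1. These levels come from a gene that another annotated gene, Gm44805, overlaps on the same strand and matches over 647 bases at 100% identity. Gm44805 had 0 counts in all 6 libraries, so reads in the shared exons may have been set aside as fitting more than 1 gene, and the level of Apoc2 here is uncertain. The next gene, Apoc4, whose annotated span ends 142 bases from that of Apoc2 and which shares 119 bases with Gm44805, had 520 ± 56.4 CPM on chow against 341 ± 75.0 CPM on high fat high sugar (SD, n = 3 each), with a log2 fold change of -0.61 ± 0.20 that did not pass (edgeR adjusted p = 0.0799). Of 6 tested genes around Apoc2, edgeR called 0 higher and 0 lower, with 2 lower at an unadjusted p under 0.05, 2 lower with DESeq2, 0 with limma-voom and 2 lower without high fat high sugar replicate 3. Apoe, the lipid carrier of hepatocytes and macrophages, had a log2 fold change of -0.31 ± 0.27, Apoc1 one of -0.73 ± 0.26 and Nectin2, a cell adhesion gene, one of 0.25 ± 0.19.

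Atp6v0d2, at chr4:19876838-19922566, encodes a subunit of the proton pump that acidifies lysosomes, in a form found in macrophages and osteoclasts. It was at 12.96, 3.46 and 18.3 CPM in chow and at 8.11, 39.9 and 6.48 CPM in high fat high sugar. The groups overlapped: high fat high sugar replicates 1 and 3 lay within the chow range and replicate 2 lay above it, at 5.47 times their mean. The log2 fold change was 0.67 ± 0.87 (SE; edgeR adjusted p = 0.640), which became -0.65 with high fat high sugar replicate 2 left out. Its counterpart in most cells, Atp6v0d1, varied little, from 78.6 to 83.0 CPM in chow and from 66.7 to 87.0 CPM in high fat high sugar, with a log2 fold change of -0.10 ± 0.13. Of 18 tested pump subunits and accessory proteins, 0 were called in either direction by edgeR, by DESeq2 or by limma-voom. At an unadjusted p under 0.05, 4 were higher, and 1 was called without high fat high sugar replicate 1. The result also depended on scaling: edgeR called 3 higher with library size alone and 1 with upper-quartile scaling. Atp6v1f, a catalytic-domain subunit, had the smallest p among those below 0, with a log2 fold change of -0.13 ± 0.12.

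**Figure D3:**
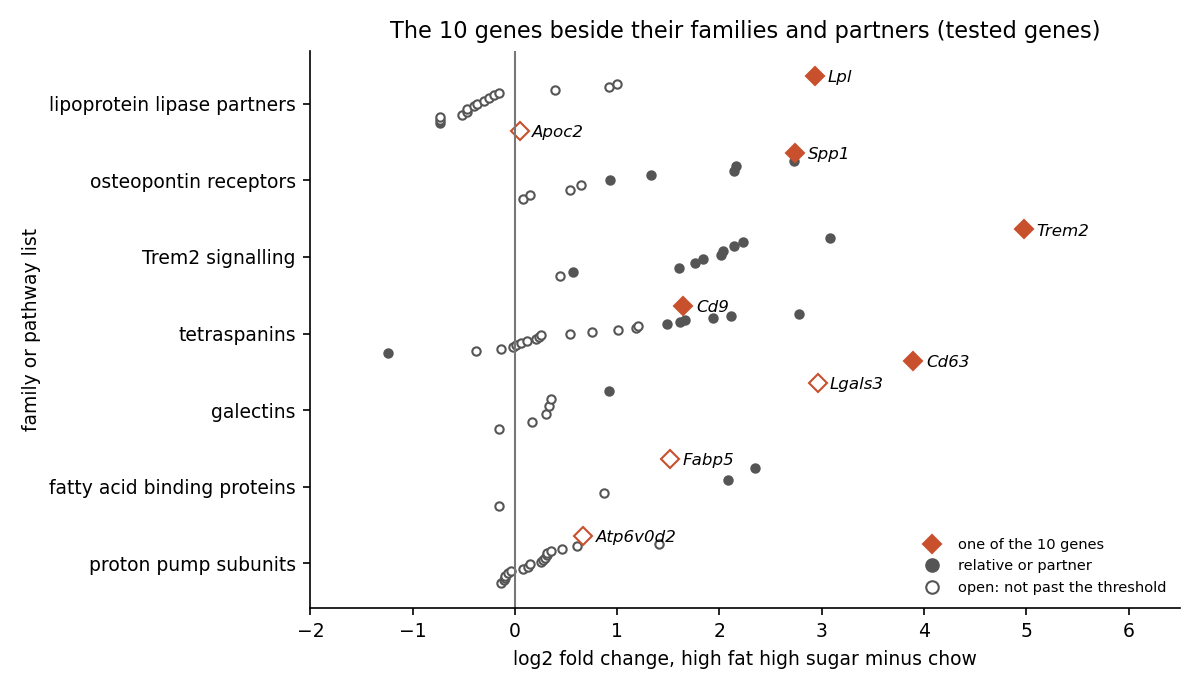
Fitted log2 fold change (high fat high sugar minus chow) of the tested genes in 7 family or partner lists, with grey circles for the relatives and orange diamonds for those of the 10 genes that belong to each, filled where past the threshold and open where not. Trem2 and Lpl lie to the right of every gene of their lists, as does Cd63 among the tetraspanins, while Fabp5 lies to the left of Fabp4 and Fabp7 and no pump subunit is filled.

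Of 19 other tested genes reported in lipid-associated macrophages, 9 were higher and 0 lower, with a median log2 fold change of 0.61. Axl, a receptor for dying cells, rose by 2.21 ± 0.34, Capg, an actin-capping protein of macrophages, by 3.07 ± 0.49, and Ctsk, a collagen-cutting cathepsin, by 2.44 ± 0.44 on the log2 scale. Apoe and the lysosomal protein Creg1 (log2 fold change -0.35 ± 0.21) did not pass. Of the 19, 5, 0 or 0 were called without chow replicate 1, 2 or 3. Among 12 transcription factors of lysosomes, lipid sensing and macrophages, 2 were higher and 0 lower: Tfec, the macrophage member of the MITF/TFE family, rose by 1.58 ± 0.30 and Spi1, which encodes PU.1, by 1.79 ± 0.40. Mitf had a log2 fold change of 0.70 ± 0.33 and Tfeb, the lysosome regulator, one of -0.04 ± 0.18, and neither passed. Rxra, a partner of lipid-sensing receptors, had one of -0.28 ± 0.17. Of the factors, 1, 0 or 0 were called without chow replicate 1, 2 or 3.

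Per kilobase of exon, the order of the 10 genes differed between diets. In chow, Spp1 stood first at 18.6 ± 6.73 CPM per kilobase (SD, n = 3), followed by Cd9, Fabp5, Apoc2, Lpl, Atp6v0d2, Lgals3 and Cd63 at 3.01 ± 0.712, and then Trem2 at 0.411 ± 0.370 and Gpnmb at 0.0904 ± 0.0514. The only neighbours in that order whose libraries did not overlap were Cd63 and Trem2. In high fat high sugar, Spp1 was again first at 124 ± 32.0 CPM per kilobase, followed by Cd63 at 44.9 ± 40.5, Lpl, Cd9, Lgals3, Fabp5, Gpnmb at 19.2 ± 23.2, Trem2 at 13.4 ± 12.6, Atp6v0d2 and Apoc2 at 6.47 ± 0.294. There, Spp1 and Cd63 were the only neighbours without overlap. The places of Cd63, Fabp5 and Apoc2 are uncertain in both orders, given the near copies and the overlapping gene named above. The levels of Spp1 and Cd9 could also include reads from the genes that overlap them.

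Markers of macrophages in general rose as well. Of 12 pan-macrophage markers, 11 were higher and 0 lower, and their summed level went from 267 to 443 CPM in chow to 836 to 1507 CPM in high fat high sugar, highest in replicate 2. Adgre1, which encodes F4/80, rose by 2.21 ± 0.20, Csf1r, the growth factor receptor of macrophages, by 1.70 ± 0.19, and the complement genes C1qb and C1qc by 1.91 and 1.63 on the log2 scale. Without chow replicate 2 or 3, 2 or 0 of the 12 were called. The part of this marker RNA in the rise of the 10 genes was not tested, but each of them can be set against it within a library.

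Relative to the summed pan-macrophage markers, Gpnmb was 0.151%, 0.0825% and 0.111% in chow and 3.35%, 13.7% and 2.47% in high fat high sugar. Its log2 ratio was 5.44 higher, and those of Trem2, Cd63 and Spp1 were higher by 3.38, 1.86 and 1.10, with no overlap between the groups (exact two-sided permutation p = 0.1 each, the smallest that 3 against 3 can give). Spp1, at 8.94%, 12.9% and 6.01% in chow and 20.0%, 17.5% and 19.3% in high fat high sugar, was steadier within its group than the others. The groups overlapped for Lpl (log2 difference 1.20, exact permutation p = 0.2), Lgals3 (0.82, p = 0.2), Cd9 (-0.07, p = 0.9), Fabp5 (-0.08, p = 1) and Atp6v0d2 (-1.24, p = 0.2). The ratio of Apoc2 was lower in every high fat high sugar library, by 1.63 on the log2 scale (exact permutation p = 0.1). Its own log2 fold change was 0.05, so the lower ratio reflects the rise of the markers in the denominator. The level of Apoc2 is also uncertain, as given above, and the ratio does not show its level in macrophages. Adjusted over the 10 tests by Benjamini-Hochberg, these exact p-values were 0.2, 0.25 or 1. Leaving out 1 library moved some of these differences: Gpnmb was at 4.69 and Lgals3 at 0.22 without high fat high sugar replicate 2, and Trem2 at 2.75 without chow replicate 3. That chow library held 2 counts of Trem2, so the size of the Trem2 difference is uncertain. The sign of Cd9 turned without chow replicate 2 (0.29) or high fat high sugar replicate 1 (0.071), and that of Fabp5 without chow replicate 2 (0.45) or with high fat high sugar replicate 2 left out (0.49). With Adgre1 alone as the denominator the differences were 0.57 for Spp1 and -0.60 for Cd9.

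**Figure D4:**
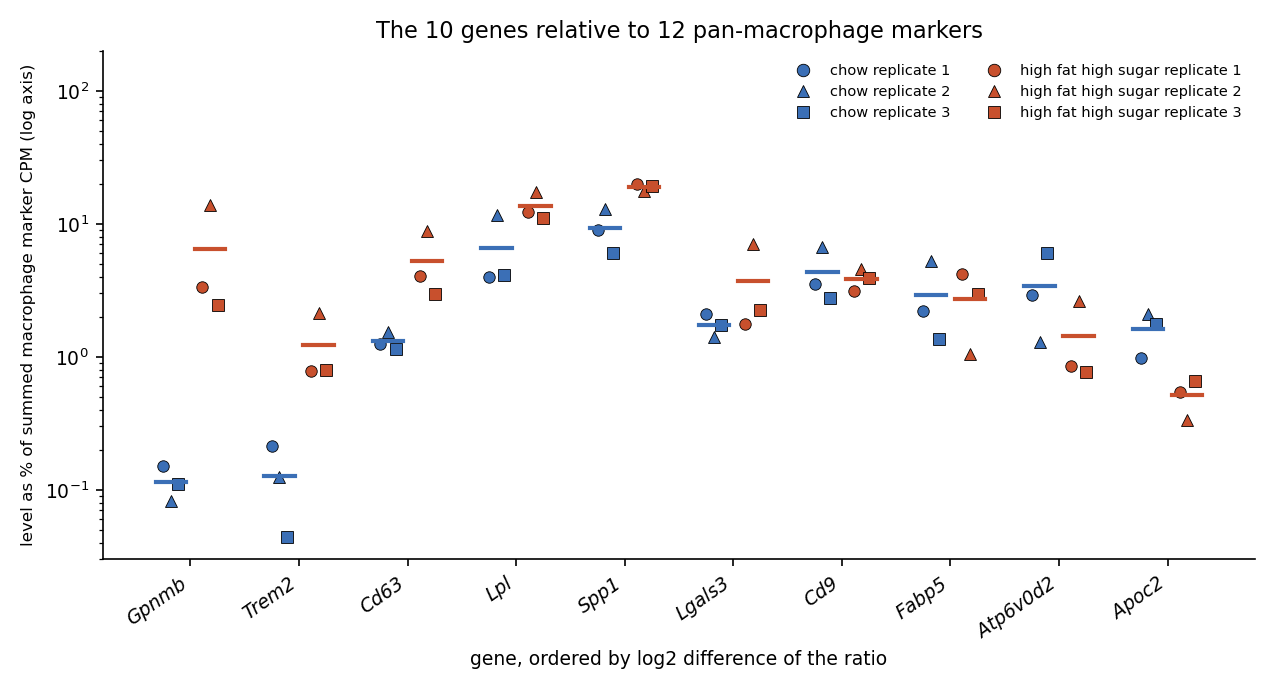
Level of each of the 10 genes as a percent of the summed CPM of 12 pan-macrophage markers (log axis), by library, with chow in blue, high fat high sugar in orange and horizontal bars for group means. Gpnmb, Trem2, Cd63 and Spp1 are separated upward, and the other 5 genes overlap apart from Apoc2. Apoc2 is separated downward, though its own mean level was nearly the same on both diets.

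Markers of narrower macrophage states were not uniform. Of 10 resident Kupffer cell markers, 6 were higher and 2 lower: Clec4f rose by 1.02, Vsig4 by 1.47 and Folr2 by 1.40 on the log2 scale, and Timd4 had a log2 fold change of -0.49 ± 0.27. The haemoglobin scavenger receptor Cd163 was at 20.1, 13.1 and 16.8 CPM in chow and at 0.258, 0.115 and 0 CPM in high fat high sugar; Marco, another scavenger receptor and the second that fell, was chosen after its values were seen. Leaving out chow replicate 3 left 0 of these markers called higher and 1 lower, and leaving out high fat high sugar replicate 2 left 1 called lower. Of 7 monocyte markers, 3 were higher and 0 lower, and the summed level was 5.78 to 13.9 CPM in chow and 35.2 to 106 CPM in high fat high sugar. The chemokine receptors Cx3cr1 and Ccr2 rose by 4.43 ± 0.61 and 3.52 ± 0.76, and Plac8 by 1.70, while Ly6c2, a surface antigen of blood monocytes, did not pass (log2 fold change 1.46 ± 0.63, edgeR adjusted p = 0.159). Leaving out chow replicate 1, 2 or 3 left 1, 1 or 0 monocyte markers called.

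Other cell types that express some of the 10 genes moved in the same libraries. Of 9 tested cholangiocyte markers, 6 were higher and 0 lower, with a summed level of 17.0 to 25.8 CPM in chow and 25.8 to 47.6 CPM in high fat high sugar, and Krt19 rose by 2.14 ± 0.55, Epcam by 2.16 and Ehf by 2.00 on the log2 scale. Cldn7 rose by 2.86, and Cftr, the chloride channel of bile ducts, had 0, 0 and 0.0673 CPM in chow and 1.39, 2.39 and 0.559 CPM in high fat high sugar. Of 10 stellate cell and fibroblast markers, 9 were higher and 0 lower (summed level 193 to 253 against 553 to 1128 CPM), with Pdgfrb, Lrat, Dcn and Reln up by 2.00, 1.43, 1.34 and 1.15. Of 9 endothelial markers, 5 were higher, among them Lyve1 by 2.36, Pecam1 by 0.95, Cdh5 by 0.78 and Stab1 by 0.69. Without chow replicate 1, 2 or 3 the calls were 2, 2 or 0 for cholangiocyte markers, 6, 3 or 0 for stellate markers and 2, 4 or 0 for endothelial ones, and 2 endothelial ones without high fat high sugar replicate 1. The part of these cells in the levels of Spp1, Lgals3, Cd9 and Lpl was not tested.

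Dendritic cell markers were higher for 3 of 5 tested genes (Flt3, Xcr1 and Clec9a, by 2.46, 1.82 and 0.85 on the log2 scale). Of 9 tested lymphocyte markers, only the natural killer receptor Ncr1 passed, while the antibody joining chain Jchain had a log2 fold change of -0.78 ± 0.34. The log2 fold change of Ncr1 was 2.51, from 6 counts in all chow libraries and 45 in all high fat high sugar libraries. Its chow levels of 0.167, 0.110 and 0.0673 CPM were at or below that of 3 counts, so the size of its rise is uncertain. Of 3 tested platelet markers only Pf4 passed, rising by 1.82, and the integrin Itga2b had a log2 fold change of -0.02 ± 0.22. Of 3 tested neutrophil markers edgeR called 0, with 3 higher at an unadjusted p under 0.05 (median log2 fold change 2.23), 3 with DESeq2, 0 with limma-voom and 1 when chow replicate 1 or high fat high sugar replicate 3 was left out. Adipocytes, which make much Lpl and Fabp4, left little trace: Adipoq was at 0.167, 0.0550 and 0.0673 CPM in chow and at 0 in every high fat high sugar library, and Lep was at 0 in all 6. Of the 2 tested genes of the adipocyte list, Pck1, also the gluconeogenic enzyme of hepatocytes, fell by 1.62 on the log2 scale, and the lipid droplet gene Cidea had a log2 fold change of 0.63 ± 1.11. Of 5 tested markers of osteoclasts, which make Atp6v0d2, 2 rose, Ctsk and Itgb3, both also made by macrophages; Acp5 had a log2 fold change of -0.0044 ± 0.12 and Calcr was at 0 in all 6 libraries. Of 9 hepatocyte markers, 1 was lower, the antitrypsin gene Serpina1a, by 0.79. At an unadjusted p under 0.05, 4 were lower, as with DESeq2, against 2 with RLE scaling or with high fat high sugar replicate 2 left out and 0 with limma-voom, library size alone, upper-quartile scaling, no filter or the replicate block. The albumin gene Alb had a log2 fold change of -0.70 ± 0.42 that did not pass (edgeR adjusted p = 0.289); the summed hepatocyte level in replicate 2 was 0.50 of the mean of replicates 1 and 3. Leaving out any chow replicate ended the calls of Xcr1, Clec9a, Pf4, Pck1, Itgb3 and Serpina1a, and leaving out chow replicate 2 or 3 those of Flt3, Ncr1 and Ctsk. Among the high fat high sugar replicates, leaving out replicate 1 ended those of Xcr1 and Pck1, replicate 2 those of Xcr1, Clec9a and Pck1, and replicate 3 those of Clec9a and Serpina1a.

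**Figure D5:**
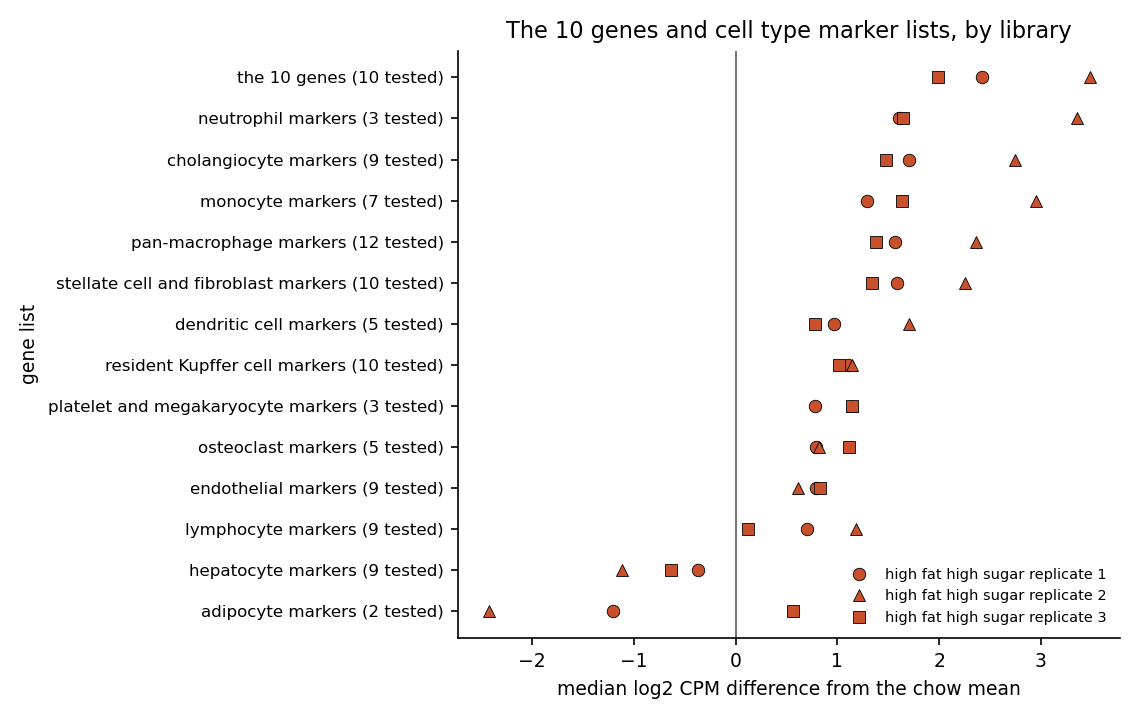
Median log2 CPM difference from the chow mean over the tested genes of each list, for the 3 high fat high sugar libraries (replicate by marker shape), with the 10 genes beside cell type marker lists. The 10 genes stand at 2.42, 3.48 and 1.99 in replicates 1, 2 and 3, the pan-macrophage markers at 1.57, 2.36 and 1.38, and the hepatocyte markers below 0 in all 3 libraries.

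Likeness of pattern was measured as the root mean square difference, over the 6 libraries, of log2 CPM centred on the chow mean, among 10640 tested genes with a mean count of at least 50. The genes most like Trem2 were Cx3cr1 (0.501), H2-M2 (0.516), the macrophage elastase Mmp12 (0.522), Gipc2 (0.584) and Emp1 (0.591). Those most like Spp1 were Slc35f2 (0.213), Ccdc3 (0.261), Igf2bp2 (0.265), Uap1l1 (0.271) and the collagen gene Col6a2 (0.282). Gpnmb had no match as close: Shc2 (1.15), Ly6d (1.21), Ephb2 (1.21), Mmp12 (1.25) and H19 (1.26) came nearest. In chow, Shc2 (0.111, 0.110 and 0 CPM), H19 (0.167, 0.165 and 0) and Gipc2 (0.111, 0.165 and 0.0673) were at or below the level of 3 counts. They reached the mean count through their high fat high sugar libraries, so in chow their likeness is one of near absence. Mmp12 was at 2.73, 0.660 and 0.673 CPM in chow and at 19.2, 123 and 31.7 CPM in high fat high sugar, so it too was highest in replicate 2. Among the 10 themselves the closest pairs were Spp1 and Lpl (0.396), Lpl and Cd63 (0.651) and Spp1 and Cd63 (0.761), and Trem2 was closest to Cd63 (0.907).

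Genes next to the 10 on the chromosome were called higher about as often as any tested gene. Of 20 nearest protein-coding neighbours, 14 were tested and 2 were higher (14.3%, beside 11.0% of all tested genes) and 0 lower, and their median log2 fold change was -0.08. B430306N03Rik, beside Trem2, rose by 1.94 ± 0.45 and Dlgap5, a mitosis gene beside Lgals3, by 1.74 ± 0.47 on the log2 scale. Pkd2, beside Spp1, had a log2 fold change of 0.30 ± 0.15 that did not pass. The call of B430306N03Rik was lost with any chow replicate left out, and that of Dlgap5 with any of the 6 libraries left out.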

How the data were processed

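Liver polyA RNA was sequenced in 3 chow and 3 high fat high sugar samples, grouped by the diet label, with a dUTP-based stranded library kit per the labels' protocols. Reads were aligned with STAR to mm10, per the submitters' processing notes. How reads were counted (program, strand setting, annotation, reads shared by genes) is not given in the sources used here. Values, as deposited, are raw read counts per gene, 1 table per library, for 24982 genes named by symbol. The entries for reads outside genes (7.74% to 10.6% of counts) and for reads fitting more than 1 gene (0.615% to 0.862%) entered neither library sizes nor tests.

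From these counts, edgeR 4.0.16 in R 4.3.3 (filterByExpr with a minimum count of 10, TMM, quasi-likelihood F test with robust estimation, no covariate) tested 12949 of 17877 genes with a count, with Benjamini-Hochberg adjustment over all of them and a threshold of 0.05. The standard error is the log2 fold change divided by the square root of F. Likeness was computed on log2 CPM (prior count 2). DESeq2 1.42.0, limma-voom (limma 3.58.1), other scalings, no filter, a replicate block and leaving out each library were alternatives. The edgeR, DESeq2 and limma-voom steps were tested on simulated data. The chi-square per gene between libraries of a group was never under 23.5, so none was a copy of another. Gene positions and promoters are from RefSeq (GRCm38.p6), the assembly that mm10 denotes. Near copies were sought with blastn 2.17.0 among GENCODE transcripts, at 95% identity or more over at least 100 bases.

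The 10 genes and the other lists were chosen with earlier results of these data known. From each other list the text names up to 4 genes past the threshold by smallest p, the gene with the smallest p in the other direction, and genes set by name. 3 counts, taken as the floor, correspond to 0.116 to 0.202 CPM, and such limits cover counting error only.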

Additional observations from a re-analysis of the deposited data

How the results depend on the processing

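With 3 samples a group, the calls depended on which were used, the chow libraries most of all. Leaving out each library in turn gave 4 to 1664 genes higher and 2 to 772 lower, and 0 to 7 of the 10 genes and 0 to 9 of the 19 other lipid-associated macrophage genes higher. Of the 71 other genes named in the text that passed, 23, 42 and 68 were lost without chow replicates 1, 2 and 3, and 4 to 8 without a high fat high sugar library. Genes lower, 468 in the report, were 974 with DESeq2 and 200 with library size alone, which moved the median log2 fold change of all genes to 0.25. Higher calls were 75.3% of all calls, and 90.6% with library size alone, 65.0% with DESeq2. Of the 10 genes, limma-voom and the lack of a filter each left 3 called and DESeq2 8, and with library size alone 7. Relative to Adgre1 alone, Spp1 was higher by 0.57 and Cd9 was at -0.60 (log2).

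Samples with the same number did not deviate together from their group means (correlations of -0.25, -0.17 and 0.03). Samples with different numbers were not compared in this way, so the correlations cannot settle whether the numbers pair samples. A replicate block gave 282 genes lower, 6 of the 10 genes and 4 of the 19 others higher, and 19 of those 71 were lost.

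Signs turned only for log2 fold changes that did not pass, and the cause was not tested. With each library left out in turn they ran from -0.65 (without high fat high sugar replicate 2) to 1.14 for Atp6v0d2, from -0.067 to 0.10 for Apoc2, from -0.65 to 0.29 for Fabp1, from -0.31 to 0.069 for Lgals9, from -0.075 to 0.018 for Itga2b, from -1.11 to 1.20 for Cidea, from -0.066 to 0.071 for Acp5 and from -0.19 to 0.050 for Tfeb. With library size alone they were 0.030 for Fabp1, 0.14 for Atp6v1f, 0.073 for Lgals9, 0.25 for Itga2b, 0.27 for Acp5, 0.15 for Atp6v0d1 and 0.25 for Tfeb. Upper-quartile scaling gave 0.069 for Itga2b, 0.085 for Acp5 and 0.047 for Tfeb, and Cidea was at -0.57 with limma-voom and -0.43 with the replicate block. Depth limits Gpnmb and Trem2 in chow, where libraries held as few as 4 and 2 counts. It also limits other named genes, such as Ncr1 and Cftr, with 6 and 1 counts over all chow libraries.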
